A study of Mus musculus with 24 samples.

Results

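The genes described here encode glycoproteins and proteoglycans of the extracellular matrix and proteins that process or crosslink collagen: Bgn, Dcn, Lum, Comp, Thbs1, Thbs2, Postn, Smoc1, Pcolce and Lox. All 18 probes that the array annotation maps to these 10 genes were taken, out of 45281 probes and 19057 named genes. Expression was measured on 24 Illumina arrays with total RNA of subcutaneous adipose tissue of C57BL/6J mice, in 8 groups of 3 arrays. There were 4 sets, each with a knockout group and its own littermate controls: Adn-C/EBPα-/- mice on chow for 3 days, Adn-PPARγ-/- mice on chow for 3 days, Adn-C/EBPα-/- mice on a high fat diet for 3 days, and Adn-C/EBPα-/- mice on a high fat diet for 1 month. The knockout diets contained doxycycline, per the design text, which does not say whether the control diets did. The mice were 10 weeks old in the 3 day sets and 14 weeks old in the 1 month set. The labels do not spell out Adn or name the promoter behind it, and the series title speaks of mature adipocytes.

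Fat cells form under the direction of the transcription factors PPARγ and C/EBPα, which later maintain the gene expression of the mature cell. Around every fat cell lies a matrix of collagen fibrils. Small leucine-rich proteoglycans such as decorin, biglycan and lumican bind these fibrils and control their spacing, procollagen processing lets the fibrils assemble, and lysyl oxidase ties them together by covalent crosslinks. In adipose tissue much of this matrix is made by fibroblast-like stromal cells, and matrix accumulates in obese fat. The comparisons ask how mRNAs of these proteins stood in knockouts of either factor. RNA of the whole tissue was measured, where fewer cells of a type and less RNA per cell cannot be told apart.

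Intensities below are on the linear scale after subtraction of the array background, and arrays of a group are listed from lowest to highest. Each fold change is a difference of log2(intensity + 16), a scale that understates the change of dim genes. It is given as knockout minus control with its standard error (±) from a limma fit to 24 arrays. A probe was called at a Benjamini-Hochberg adjusted p under 0.05 over the 30257 probes tested. A gene with several probes was counted by its brightest one. The 4 sets were normalized separately, so intensities of different sets are side by side without a test. Since the labels do not tie the 3 samples of a group to separate animals, the p-values rest on a spread between samples that could be technical. Of the 18 probes 16 passed the filter on dim signals, and all 10 genes kept at least 1 probe. The other 2 were Postn probes, ILMN_1216882 and ILMN_2493114.

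The targeted gene Cebpa was left at 48.1% of its control intensity in the chow C/EBPα knockouts, at 21.3% after 3 days and at 7.29% after 1 month on high fat diet. It stood at 37.4% in the PPARγ knockouts. The Pparg probes disagreed in the PPARγ knockouts, with log2 fold changes of -1.08, 1.10 and 1.24, and the position of these probes relative to the deleted part was not used here. In the 1 month C/EBPα knockouts every Pparg probe was called lower, at -0.60, -0.54 and -1.60 in the same order. After 3 days on high fat diet only the last of them was called, at -1.18, and on chow none was. No tested adipocyte marker was at background on all arrays of a group, except Retn, the resistin gene, in the 1 month knockouts. Arrays of a group correlated with each other at r between 0.992 and 0.997 over the log2 deposited intensities of all 45281 probes, before background correction. The number of arrays limits the precision.

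Most of these matrix genes that changed were higher in the knockouts, and Smoc1 alone fell. The 10 genes were chosen with earlier results of these data known. The shares of all genes beside their counts are therefore a description and not a test. In the PPARγ knockouts 6 of the 10 genes rose (Bgn, Lum, Comp, Thbs2, Pcolce and Lox) and 1 fell, while 3.95% of all 14544 genes rose and 4.02% fell. In the C/EBPα knockouts after 1 month on high fat diet 5 rose (Lum, Comp, Thbs1, Thbs2 and Pcolce) and 1 fell, against 8.56% and 7.79% of all genes. Comp, Thbs2 and Pcolce rose and 1 gene fell after 3 days on high fat diet, when 0.578% of all genes rose and 1.28% fell. On chow the C/EBPα knockouts had 2 genes higher (Pcolce and Postn) and 1 lower, against 0.474% and 0.447%. That last count is unstable, since it was 0 when only the 6 arrays of that set were fitted and between 0 and 2 when any single array of the set was left out. Of the 16 probes 3, 9, 4 and 12 were called in the chow C/EBPα, chow PPARγ, 3 day and 1 month comparisons, against 0.863%, 6.36%, 1.40% and 13.2% of all probes tested. In that order of comparisons the median log2 fold change of the 10 genes was 0.21, 0.63, 0.16 and 0.52, while that of all genes was 0.0052, 0.013, 0.0050 and 0.010.

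**Figure D1:**
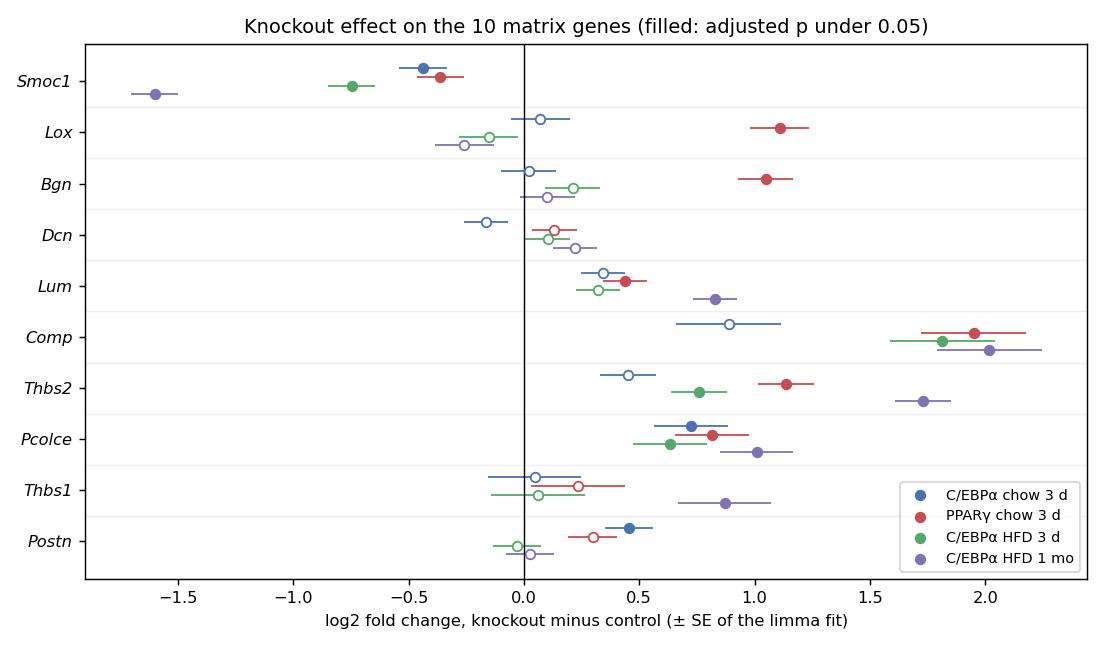
Log2 fold change, knockout minus control (x axis), of each of the 10 genes by its brightest probe (y axis) in the 4 comparisons (colours), with bars for the standard error of the limma fit and filled points for an adjusted p under 0.05. Smoc1 lies left of 0 in every comparison, Lum, Comp, Thbs2 and Pcolce lie right of 0 in every comparison, and Bgn and Lox are past 1 in the PPARγ comparison only among the 4 shown.

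The knockout arrays lay above all control arrays of their set for 5, 8, 5 and 5 of the 10 genes in the same order of comparisons. Over all genes that held for 9.60%, 16.7%, 8.90% and 17.8%. They lay below all controls for 2, 1, 1 and 1 of the 10, against 8.26%, 13.3%, 9.57% and 16.1% of all genes. Comp, Lum, Pcolce and Thbs2 had knockout arrays above their controls in all 4 sets, which 80 genes (0.550%) did. Smoc1 had them below in all 4 sets, as did 102 genes (0.701%). The 4 comparisons share no arrays, but the 10 genes were chosen with earlier results of these data known.

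The promoters of Pcolce, which was called higher in all 4 sets, of Thbs2, which was called higher in all but the chow C/EBPα set, and of Bgn, which rose in the PPARγ set, are shown because a reader can set them beside those changes. They come from the RefSeq promoter table (GRCm38.p6), where 4 of the 10 genes matched. Postn, the other match, was like Bgn called in 1 set only. It is not printed, but its motif matches are given below. Each line holds the 250 bases before the annotated gene start in build GRCm38, read 5′ to 3′ on the strand of the gene, and capitals mark motif matches on either strand. The regions are chr17:14694263-14694512 (minus strand) for Thbs2, chr5:137611405-137611654 (minus strand) for Pcolce and chrX:73483351-73483600 (plus strand) for Bgn.
Thbs2: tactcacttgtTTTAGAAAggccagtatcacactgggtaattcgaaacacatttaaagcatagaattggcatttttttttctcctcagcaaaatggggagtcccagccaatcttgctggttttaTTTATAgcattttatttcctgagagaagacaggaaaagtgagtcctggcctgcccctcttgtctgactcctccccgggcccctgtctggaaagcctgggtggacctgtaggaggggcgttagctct
Pcolce: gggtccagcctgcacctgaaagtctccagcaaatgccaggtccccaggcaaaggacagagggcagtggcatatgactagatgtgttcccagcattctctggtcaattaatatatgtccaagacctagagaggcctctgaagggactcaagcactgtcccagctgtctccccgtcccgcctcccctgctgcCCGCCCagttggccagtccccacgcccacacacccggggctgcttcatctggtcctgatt
Bgn: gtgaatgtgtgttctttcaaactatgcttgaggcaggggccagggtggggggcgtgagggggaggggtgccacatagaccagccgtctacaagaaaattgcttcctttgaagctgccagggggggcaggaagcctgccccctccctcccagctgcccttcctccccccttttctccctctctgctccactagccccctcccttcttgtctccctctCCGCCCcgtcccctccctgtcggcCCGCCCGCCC
Both strands were searched for 4 motifs. The first was the core of the TATA box, written TATAAA, which 12.4% of 32851 RefSeq promoters of the same length held. The GC box, a site of Sp1 family factors, was searched as GGGCGG and stood in 32.7% of them. The site of AP-1 was searched as TGANTCA, with a share of 6.75%. A loose form of the C/EBP site was searched as TTNNGNAA, with a share of 36.9%. Thbs2 held 1 match to the TATA box core, on the strand opposite to the gene and near the middle of the window. It also held 1 match to the loose C/EBP site. Pcolce held 1 GC box, and Bgn held 3 GC boxes, of which the last 2 overlap. In each listed Postn window the loose C/EBP site had 3 matches, and in 1 of them the TATA box core had 1. These matches describe the letters of the window and are not evidence of binding.

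Biglycan, decorin and lumican are the small leucine-rich proteoglycans of the group. Biglycan (Bgn) is found on the cell surface and around cells, and in mice and humans also acts as a ligand of innate immune receptors once released. In the PPARγ set the control arrays of Bgn read 4501, 4611 and 5612, and the knockouts read 9609, 9609 and 11211. Every knockout array was well above every control, the means being 4908 ± 612 and 10143 ± 925 (SD, n = 3). Bgn rose by 1.05 ± 0.12 (limma adjusted p = 8.72e-06). In the chow C/EBPα set the controls read 5879.9, 6299 and 7999 and the knockouts 6091, 6863 and 7387, so that the groups overlapped. On high fat diet for 3 days they read 4929.9, 5083 and 5705 against 5823, 6157 and 6191, and after 1 month 7098, 8448 and 8474 against 8153, 8561 and 8990.2. The groups were apart at 3 days, with the knockouts higher, and overlapped at 1 month. Bgn was not called in any C/EBPα comparison, and its 95% intervals on the log2 scale were -0.23 to 0.27 on chow, -0.036 to 0.46 after 3 days and -0.15 to 0.35 after 1 month on high fat diet, against 0.80 to 1.29 in the PPARγ comparison. Of these contrasts with the PPARγ effect only that on chow was tested, as given further on.

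Lumican (Lum), which binds collagen fibrils and limits their thickness, read 3160.0, 3202 and 3397 in the controls and 5189, 5931 and 6273 in the knockouts after 1 month on high fat diet. The groups did not overlap, and Lum rose by 0.83 ± 0.096 (limma adjusted p = 2.92e-06). In the PPARγ set it went from 2369.8, 2492 and 2858 to 3369, 3375 and 3713, again without overlap, a rise of 0.44 ± 0.096 (adjusted p = 0.00662). Without control replicate 2 of the PPARγ set the call was lost at an adjusted p of 0.0536. On chow the C/EBPα controls read 2889.5, 3019 and 3024 and the knockouts 3609, 3801 and 3925, and after 3 days on high fat diet 2469.7, 2743 and 3071 against 3309, 3353 and 3667. The groups stood apart in both sets, but neither difference was called, at 0.34 ± 0.096 (adjusted p = 0.0931) and 0.32 ± 0.096 (adjusted p = 0.118). A second Lum probe, ILMN_2773259, was called at 1 month, with 1.01 ± 0.15 (adjusted p = 4.77e-05), and stood at 0.29 ± 0.15, 0.44 ± 0.15 and 0.41 ± 0.15 in the 3 day sets (C/EBPα chow, PPARγ chow and C/EBPα high fat diet) without a call.

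Decorin (Dcn) binds type I collagen and can bind transforming growth factor β. It is measured by 4 probes, and they did not give the same picture. The brightest, ILMN_2747959, read 13622, 13882 and 16424 in the 1 month controls and 16371, 17239 and 17451 in the knockouts. One control array reached into the knockout range, and the difference of 0.22 ± 0.096 was not called (limma adjusted p = 0.152). The other 3 probes were called higher at 1 month, with knockout arrays above every control: ILMN_2604695 by 1.03 ± 0.16 (adjusted p = 9.59e-05), ILMN_1254458 by 0.69 ± 0.14 (0.0016) and ILMN_2596346 by 0.49 ± 0.11 (0.00478). For ILMN_2604695 the 1 month controls read 133, 176 and 217 and the knockouts 294, 408 and 422. On chow the brightest probe read 22863, 25218 and 25324 in C/EBPα controls and 21176, 21926 and 22372 in knockouts, all knockouts being lower, while in the PPARγ set it read 17366, 17806 and 17902 and 18545, 19581 and 20058, all knockouts being higher. Neither was called, at -0.16 ± 0.096 (adjusted p = 0.437) and 0.13 ± 0.096 (adjusted p = 0.542). The other 3 Dcn probes stood slightly above their controls in the chow C/EBPα set, at 0.018 ± 0.11, 0.27 ± 0.16 and 0.077 ± 0.14, none called, and for ILMN_2604695 without overlap. After 3 days on high fat diet no Dcn probe was called, and the brightest stood at 0.10 ± 0.096.

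**Figure D2:**
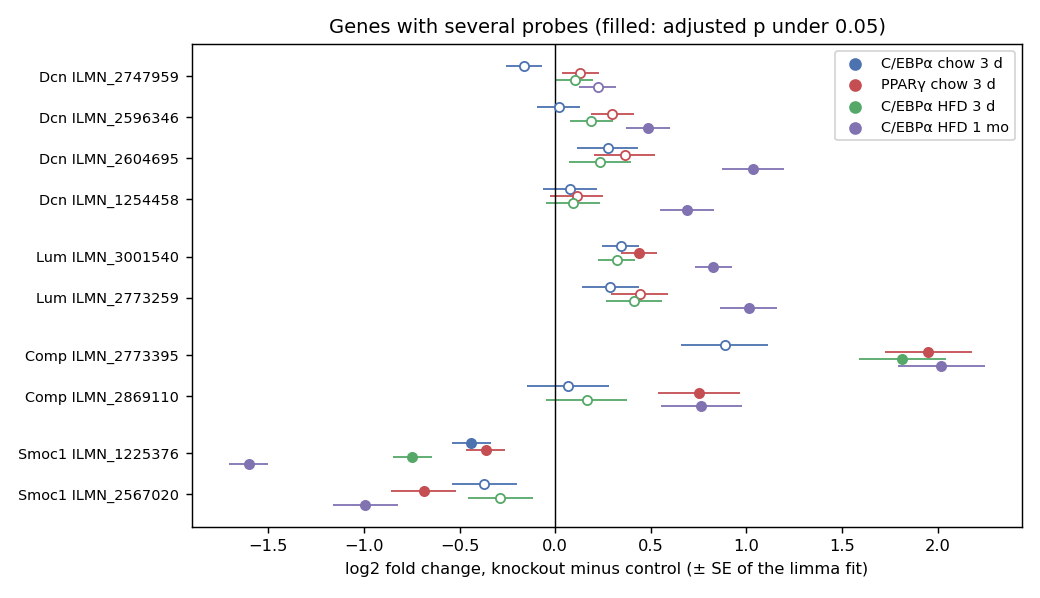
Log2 fold change, knockout minus control (x axis), of every tested probe of the 4 genes with several tested probes (y axis) in the 4 comparisons (colours), with bars for the standard error of the limma fit and filled points for an adjusted p under 0.05. At 1 month 3 of the 4 Dcn probes are filled and the brightest, at 0.22, is not, and the second Comp probe lies nearer 0 than the brighter one in every comparison.

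Comp, Thbs1 and Thbs2 encode thrombospondins, secreted multidomain proteins that bind calcium, matrix proteins and cell receptors. Comp, the cartilage oligomeric matrix protein, joins collagen fibrils and is best known from cartilage and tendon. Its signal was dim, and its changes were the widest of the 10 genes in the PPARγ and both high fat diet comparisons. PPARγ set controls read 28.9, 38.5 and 48.5 and the knockouts 145, 158 and 309. The 3 day high fat diet controls read 13.3, 14.6 and 23.4 and the knockouts 65.8, 111 and 132. At 1 month they read 39.8, 51.4 and 55.1 against 209, 259 and 271. The lowest knockout array was above the highest control in each of these sets, with ratios of the means of 5.28, 6.01 and 5.05. Comp rose by 1.95 ± 0.23 (limma adjusted p = 1.13e-05), 1.81 ± 0.23 (0.000125) and 2.02 ± 0.23 (1.99e-06). On chow the C/EBPα controls at 56.5, 58.5 and 62.5 also lay below the knockouts at 103, 119 and 151, but 0.89 ± 0.23 was not called (adjusted p = 0.0659). The dimmer probe ILMN_2869110 was called higher in the PPARγ set (0.75 ± 0.21, adjusted p = 0.0364) and at 1 month (0.76 ± 0.21, 0.0181). It was not called on chow (0.067 ± 0.21) or after 3 days on high fat diet (0.16 ± 0.21) in the C/EBPα knockouts. Both calls of this probe were lost when single arrays were left out, in the PPARγ set without control replicates 1 or 2 or knockout replicates 1 or 3 (adjusted p 0.105 to 0.191) and at 1 month without control replicates 2 or 3 or knockout replicate 1 (0.0602 to 0.0853).

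Thbs2, which encodes an inhibitor of blood vessel growth that also influences collagen fibril assembly, had the smallest adjusted p among the members that rose at 1 month. Controls read 1032, 1118 and 1349 and knockouts 3716, 3926 and 4018. The knockouts averaged 3.33 times the controls, with no overlap. Thbs2 rose by 1.73 ± 0.12 (limma adjusted p = 2.59e-09). In the PPARγ set the controls read 1019, 1046 and 1243 and the knockouts 2223, 2431 and 2658, and Thbs2 rose by 1.13 ± 0.12 (5.3e-06). At 3 days of high fat diet it went from 904, 1075 and 1147 to 1459, 1915 and 1968, a rise of 0.76 ± 0.12 (0.00134) that was not called when only that set was fitted (0.105). The chow C/EBPα controls read 1492, 1525 and 1636 and the knockouts 2089.8, 2108 and 2179. They did not overlap either, but the difference of 0.45 ± 0.12 was not called (0.0801).

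Thbs1, the best known activator of latent transforming growth factor β in the family, was dim. After 1 month on high fat diet its controls read 11.8, 24.2 and 26.7 and its knockouts 37.6, 47.6 and 69.4, above background on all 6 arrays and without overlap. It rose by 0.87 ± 0.20 (limma adjusted p = 0.00498). In the other sets only 1 or 2 of 3 arrays per group exceeded background, the groups overlapped and no difference was called. The log2 fold changes there were 0.046 ± 0.20 (C/EBPα, chow), 0.24 ± 0.20 (PPARγ) and 0.060 ± 0.20 (C/EBPα, high fat diet).

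**Figure D3:**
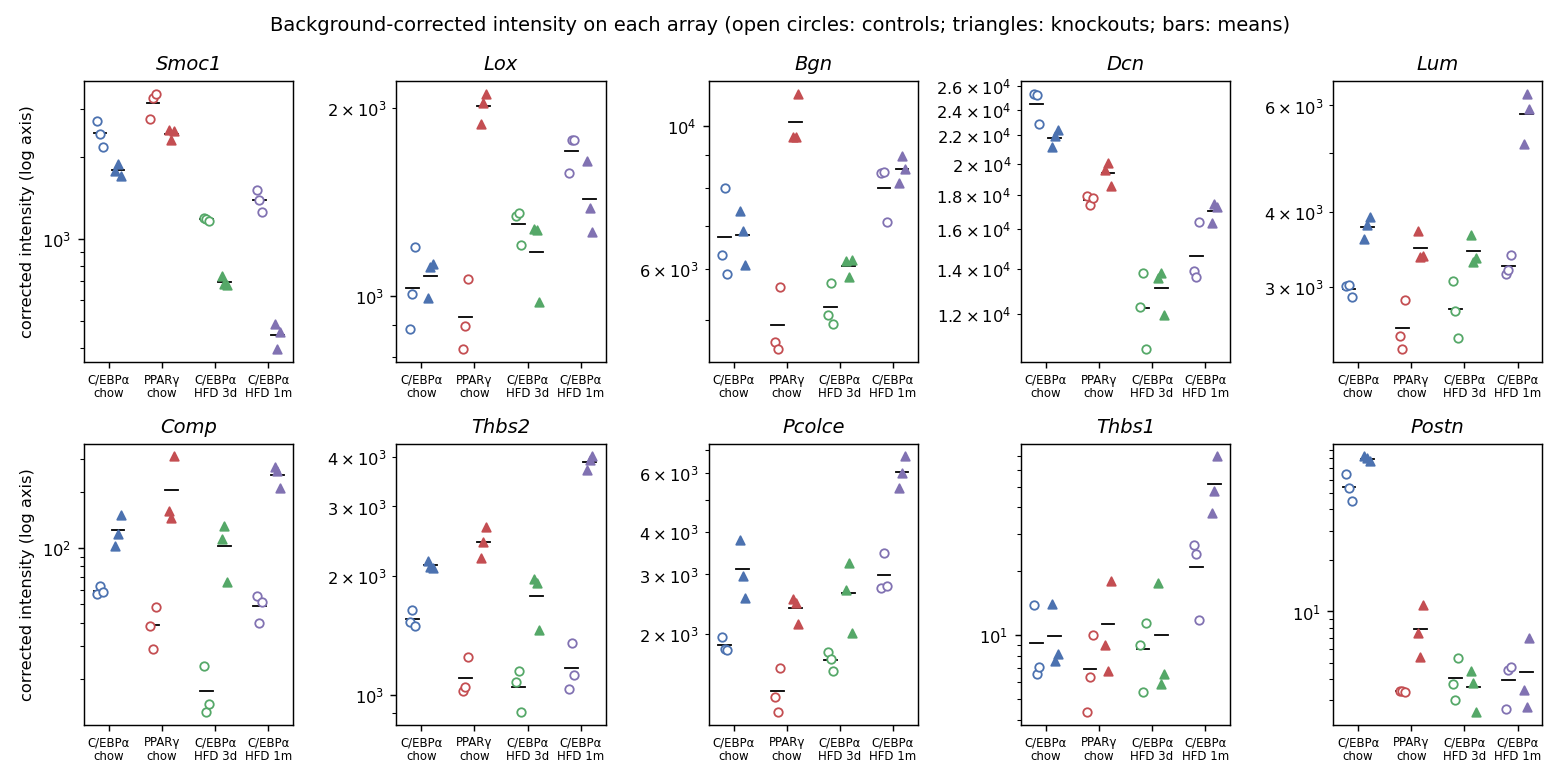
Background-corrected intensity (y axis, log scale) of each of the 10 genes by its brightest probe on every array of the 4 sets (x axis, 3 controls as open circles and 3 knockouts as triangles, bars for group means). For Comp, Thbs2, Pcolce and Lum all triangles lie above the circles of the same set, and for Smoc1 all lie below; levels of different sets were normalized separately.

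Smoc1 and Postn encode matricellular proteins, which signal to cells from the matrix rather than build it. Smoc1, a calcium-binding protein of the SPARC family known as a regulator of bone morphogenetic protein signalling, was lower in every knockout group. At 1 month the controls read 1258, 1394 and 1517 and the knockouts 396, 459 and 488, so that 32.2% of the mean intensity was left. Smoc1 fell by 1.60 ± 0.10 on the log2 scale (limma adjusted p = 7.12e-10). In the 3 day high fat diet set the controls at 1165, 1184 and 1195 stood above the knockouts at 678, 685 and 731, a fall by 0.75 ± 0.10 (0.00029) that left 59.1%. On chow the C/EBPα controls read 2180.1, 2414 and 2706 and the knockouts 1704, 1781 and 1875, and the PPARγ controls 2754, 3275 and 3398 and the knockouts 2299.7, 2490.0 and 2508. The groups did not overlap, and Smoc1 fell by 0.44 ± 0.10 (0.0429) and by 0.36 ± 0.10 (0.0358) on the log2 scale. Both chow calls were close to the threshold. The first was lost without any array of its set other than control replicate 3 (adjusted p 0.0558 to 0.134), and the second without any other than control replicate 1 (0.0651 to 0.152). The dimmer probe ILMN_2567020 was called lower at 1 month (-0.99 ± 0.17, adjusted p = 0.000283) and in the PPARγ set (-0.69 ± 0.17, 0.016). The PPARγ call of this probe was lost without control or knockout replicate 2 (0.0844 and 0.0941). It stood at -0.37 ± 0.17 in the chow C/EBPα knockouts and at -0.29 ± 0.17 after 3 days on high fat diet, not called.

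Postn encodes periostin, a matrix protein of healing and fibrotic tissue. Its brightest probe was above background on all arrays of the chow C/EBPα set alone, where controls read 45.1, 53.2 and 64.3 and knockouts 77.0, 80.0 and 82.0. The knockouts were all higher, by 0.46 ± 0.10 (limma adjusted p = 0.04). That call was lost without any array of the set other than control replicate 1 (0.0673 to 0.12). In the PPARγ set no control array (3.34, 3.39 and 3.41) and 2 of 3 knockout arrays (5.40, 7.51 and 10.8) were above background, which gives at least a 1.02-fold difference and no call (0.1). On high fat diet all arrays were at background after 3 days, and after 1 month all but 1 knockout array were.

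Pcolce and Lox act on collagen after its secretion. Pcolce, a protein that enhances the removal of the C-terminal propeptide of procollagens, was called higher in all 4 comparisons, as were 6 of 14544 genes (0.0413%). At 1 month its controls read 2742, 2773 and 3473 and its knockouts 5399, 5993 and 6702. The PPARγ set read 1177, 1300.1 and 1590.4 against 2145, 2463 and 2543. There was no overlap in either, and Pcolce rose by 1.01 ± 0.16 (limma adjusted p = 0.000119) and 0.81 ± 0.16 (0.00262). In the chow C/EBPα set it went from 1793, 1802 and 1959 to 2559.6, 2968 and 3788, and after 3 days on high fat diet from 1556, 1682 and 1771 to 2007, 2694 and 3236. The knockouts were again all higher but spread widely, and the rises of 0.72 ± 0.16 (0.0289) and 0.63 ± 0.16 (0.0486) were near the threshold. The chow call was lost without control replicates 2 or 3 or knockout replicates 1 or 2 (adjusted p 0.0553 to 0.101). The 3 day call was lost without any array of its set other than knockout replicate 3 (0.0907 to 0.203). Smoc1 was the member among the 11 genes (0.0756%) called lower in all 4 comparisons, with the limits on its chow calls given above.

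Lox encodes lysyl oxidase, the enzyme that starts the covalent crosslinking of collagen and elastin. Controls of the PPARγ set read 823, 897 and 1064 and knockouts 1886, 2036 and 2105. The knockouts were higher on every array, the means being 928 ± 123 and 2009 ± 112 (SD, n = 3), and Lox rose by 1.11 ± 0.13 (limma adjusted p = 1.06e-05). No call was made in the C/EBPα sets. Controls and knockouts read 886, 1007 and 1198 and 992, 1115 and 1124 on chow, 1208, 1345 and 1356 and 979, 1275 and 1278 after 3 days on high fat diet, and 1573, 1773 and 1777 and 1266, 1381 and 1644 after 1 month. The groups overlapped each time, with 95% intervals of -0.20 to 0.34, -0.42 to 0.11 and -0.53 to 0.0075 on the log2 scale. The interval in the PPARγ comparison was 0.84 to 1.37.

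The knockout effects themselves were compared next, with array set and condition not to be told apart because each effect comes from a set of its own. On chow the PPARγ effect exceeded the C/EBPα effect for Bgn by 1.03 ± 0.17 (limma adjusted p = 0.00197), for Lox by 1.04 ± 0.18 (0.00381) and for Thbs2 by 0.68 ± 0.17 (0.0417). These 3 of the 10 genes stand against 2.30% of all genes called in either direction. The Thbs2 difference is the least secure, since leaving out any array of these 2 sets other than PPARγ control replicate 3 or knockout replicate 1 took it to adjusted p-values of 0.0543 to 0.111. For Comp the difference was 1.06 ± 0.32 and not called (0.092), and for Dcn it was 0.30 ± 0.14 (0.285). Between 3 days of high fat diet and chow no C/EBPα effect differed by a call, for the 10 genes or for any of all 14544 genes (0%), although 3 of the 10 and 1626 of all genes had an unadjusted p under 0.05 in limma. The 3 were Comp (0.93 ± 0.32), Postn (-0.49 ± 0.15) and Smoc1 (-0.31 ± 0.14), each by its brightest probe. Postn was at background on all arrays of the 3 day high fat diet set. The dimmer probes gave 0.098 ± 0.30 for Comp (ILMN_2869110) and 0.083 ± 0.24 for Smoc1 (ILMN_2567020), the latter of opposite sign.

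Between 1 month and 3 days of high fat diet the effect of C/EBPα loss was larger at 1 month for 2 of the 10 genes, against 1.46% of all genes. Thbs2 rose further by 0.97 ± 0.17 (limma adjusted p = 0.00545), and Smoc1 fell further by 0.86 ± 0.14 on the log2 scale (0.00381), both under every alternative tried. That Smoc1 value is of the brighter probe. The dimmer Smoc1 probe ILMN_2567020 differed by -0.71 ± 0.24 and was not called (0.218). The difference for Lum was 0.51 ± 0.14 and not called (0.0795), although it was called without 3 day control replicate 3 (0.0404) or without 1 month knockout replicate 1 (0.0415). It was also called without background correction (0.0174) and with an offset of 50 in place of 16 (0.0257). For Comp the difference was 0.20 ± 0.32 by the brighter probe, with a 95% interval of -0.47 to 0.87, and 0.60 ± 0.30 by ILMN_2869110, with an interval of -0.026 to 1.22, and neither was called.

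Of other matrix genes the most calls were made at 1 month, with 11 of 15 collagens and 10 of 19 collagen processing enzymes. These lists too were chosen with earlier results of these data known. The counts of the lists below stand beside 0.474% of all genes higher and 0.447% lower in the chow C/EBPα set, 3.95% and 4.02% in the PPARγ set, 0.578% and 1.28% after 3 days of high fat diet, and 8.56% and 7.79% at 1 month. Of 26 tested proteoglycans outside the group, 4 rose and 1 fell in the PPARγ set, and 6 rose and 2 fell at 1 month. Ogn, which encodes the small leucine-rich proteoglycan osteoglycin, rose by 1.27 ± 0.12 at 1 month and by 0.55 ± 0.12 after 3 days on high fat diet, as the 1 gene of the list called there, and by 0.46 ± 0.12 in the PPARγ set. The cell surface proteoglycans Sdc4 (0.58 ± 0.10) and Sdc2 (0.38 ± 0.09) and the large proteoglycan Vcan (0.63 ± 0.16) rose in the PPARγ set, while Cspg4, a pericyte proteoglycan, fell by 0.77 ± 0.13 on the log2 scale. In the chow C/EBPα set 1 gene of the list, Gpc4, fell by 0.77 ± 0.18, and none rose. Podn (0.74 ± 0.15) and Agrn (0.42 ± 0.09) rose at 1 month and Prelp fell by 0.56 ± 0.12. The list medians were 0.028 (C/EBPα, chow), 0.18 (PPARγ), 0.0055 (3 days of high fat diet) and 0.077 (1 month).

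Of 19 tested collagen processing and crosslinking enzymes 5 rose and 0 fell in the PPARγ set, 1 rose after 3 days on high fat diet, and 8 rose and 2 fell at 1 month. Plod2, a lysyl hydroxylase that marks collagen for crosslinking, rose by 0.71 ± 0.13 in the PPARγ set, 0.55 ± 0.13 after 3 days and 0.68 ± 0.13 after 1 month on high fat diet. P3h4, part of a collagen hydroxylation complex, rose by 0.52 ± 0.14 in the PPARγ set and 0.95 ± 0.14 at 1 month. Loxl1, a lysyl oxidase relative needed for elastic fibres, rose by 0.61 ± 0.11 at 1 month, when Plod3 fell by 0.48 ± 0.09. Bmp1, the procollagen C-proteinase whose action Pcolce enhances, rose by 0.52 ± 0.14 in the PPARγ set and by 0.69 ± 0.14 at 1 month. None was called in the chow C/EBPα set, and the medians were -0.021, 0.22, 0.088 and 0.23.

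Among 18 tested matricellular genes 0, 2, 1 and 6 rose and 0, 0, 0 and 1 fell in the same order of comparisons, with medians of 0.046, 0.26, 0.083 and 0.063. Ccn5 (0.90 ± 0.22) and Spon1 (0.73 ± 0.19) rose in the PPARγ set and Ccn1 (1.36 ± 0.32) after 3 days on high fat diet. At 1 month Igfbp7 (0.68 ± 0.11), Tgfbi (0.62 ± 0.10) and Ccn5 (0.82 ± 0.22) rose and Ccn2, the connective tissue growth factor gene, fell by 0.94 ± 0.16. Of 33 structural and elastic fibre glycoproteins 2 rose in the PPARγ set, Fbln1 (0.69 ± 0.12) and Emilin2 (0.51 ± 0.13), and 7 rose and 4 fell at 1 month, among them Mfap2 (0.92 ± 0.17), fibronectin Fn1 (0.63 ± 0.14), Emilin2 (0.56 ± 0.13) and Matn2 (-0.95 ± 0.21). None was called in the other sets, and the medians were 0.084, 0.24, 0.065 and 0.10.

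Among the 15 collagens 6 rose and 5 fell at 1 month. The fibrillar collagen gene Col3a1 rose by 1.08 ± 0.20 and Col6a1 by 0.46 ± 0.10, and the genes Col4a1 (-0.67 ± 0.11), Col4a2 (-0.62 ± 0.12) and Col15a1 (-0.90 ± 0.16), for collagens of basement membranes, fell. Elsewhere 1 collagen was called, Col6a1 in the chow C/EBPα set (0.41 ± 0.10), while the medians were 0.24, 0.23, 0.12 and 0.24 in the same order, against 0.0052, 0.013, 0.0050 and 0.010 for all genes. Receptors of the 10 proteins (19 tested) had 0, 3, 0 and 3 genes higher and 1, 1, 1 and 2 lower, with medians of 0.080, 0.11, -0.027 and -0.020. Itga5 (0.41 ± 0.09) and Lrp1 (0.52 ± 0.13) and Tlr2 (0.51 ± 0.15) rose and Met fell by 0.72 ± 0.15 in the PPARγ set, Itgb3 fell by 0.71 ± 0.15 in the chow C/EBPα set, and Cd36, a thrombospondin receptor and fatty acid transporter, fell by 0.53 ± 0.13 after 3 days on high fat diet. At 1 month Egfr (0.90 ± 0.13) and Tlr2 (0.73 ± 0.15) rose and the collagen receptor gene Ddr1 fell by 1.20 ± 0.20. In the transforming growth factor β pathway (16 tested) 2 rose and 1 fell in the PPARγ set and 3 rose and 2 fell at 1 month, with none called in the other sets and medians of -0.068, 0.22, 0.095 and 0.068. Smad3 rose by 0.53 ± 0.09 in the PPARγ set, and the receptor gene Tgfbr2 by 0.57 ± 0.09 at 1 month.

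Markers of some cell types in fat were called in these comparisons too. Of 9 tested adipocyte markers 7 fell in the PPARγ set and 8 fell and 1 rose at 1 month, against 1 and 2 that fell in the chow C/EBPα and 3 day sets. Their summed intensity was 77028 to 84346 in PPARγ controls and 57028 to 58807 in knockouts, and 90983 to 99262 against 64061 to 73908 at 1 month. Of 9 fibroblast and progenitor markers 3 rose in the PPARγ set and 6 at 1 month, and none in the other sets. The fibroblast sum was 10659 to 12456 in PPARγ controls and 12757 to 16160 in knockouts, and 8279 to 9769 against 12798 to 14806 at 1 month. In the 3 day high fat diet set the sum was 7165 to 8718 against 9455 to 10500 (no marker called), and on chow the C/EBPα groups overlapped at 11872 to 12791 against 11318 to 13599. All 8 macrophage markers rose at 1 month, 2 in the PPARγ set and 1 after 3 days on high fat diet, and their sum at 1 month was 11332 to 12203 against 17714 to 24601. Their part in the changes of the matrix genes was not tested.

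Comp is known from tendon and cartilage, whose markers were measured too. Of 5 tested, Sox9, a chondrocyte transcription factor, was the one called, at 1.53 ± 0.26 in the PPARγ set and 1.61 ± 0.26 at 1 month. Their summed intensity was higher in the knockouts of all 4 sets, at 298 to 439 against 484 to 548 on chow, 156 to 162 against 254 to 813 in the PPARγ set, 103 to 128 against 174 to 182 after 3 days and 121 to 164 against 355 to 377 after 1 month on high fat diet. Such a sum weighs the brightest markers most, and the median log2 fold changes of the 5 were 0.25, 0.23, 0.031 and 0.076 in that order. Acan, which encodes the cartilage proteoglycan aggrecan, was at background in the PPARγ controls, both 3 day high fat diet groups and the 1 month knockouts. At background were also Scx in the PPARγ controls, Tnmd in the PPARγ knockouts and Col2a1 in the 1 month controls. The part of these markers in the Comp result was not tested. Of 7 smooth muscle and pericyte markers 1 rose and 3 fell in the PPARγ set, and 1 fell at 3 days and 2 fell at 1 month. Endothelial markers were called at 1 month only, with 4 of 7 lower. Platelet markers (4 tested) had 1 higher in the PPARγ set and 2 at 1 month, and nerve markers (2 tested) 1 higher in the chow C/EBPα set and at 1 month. Mesothelial (3 tested), skeletal muscle (5 tested) and mammary epithelium markers (3 tested) had no call in any comparison. The skeletal muscle sum varied within groups, from 8664 to 36409 among PPARγ controls, for example.

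**Figure D4:**
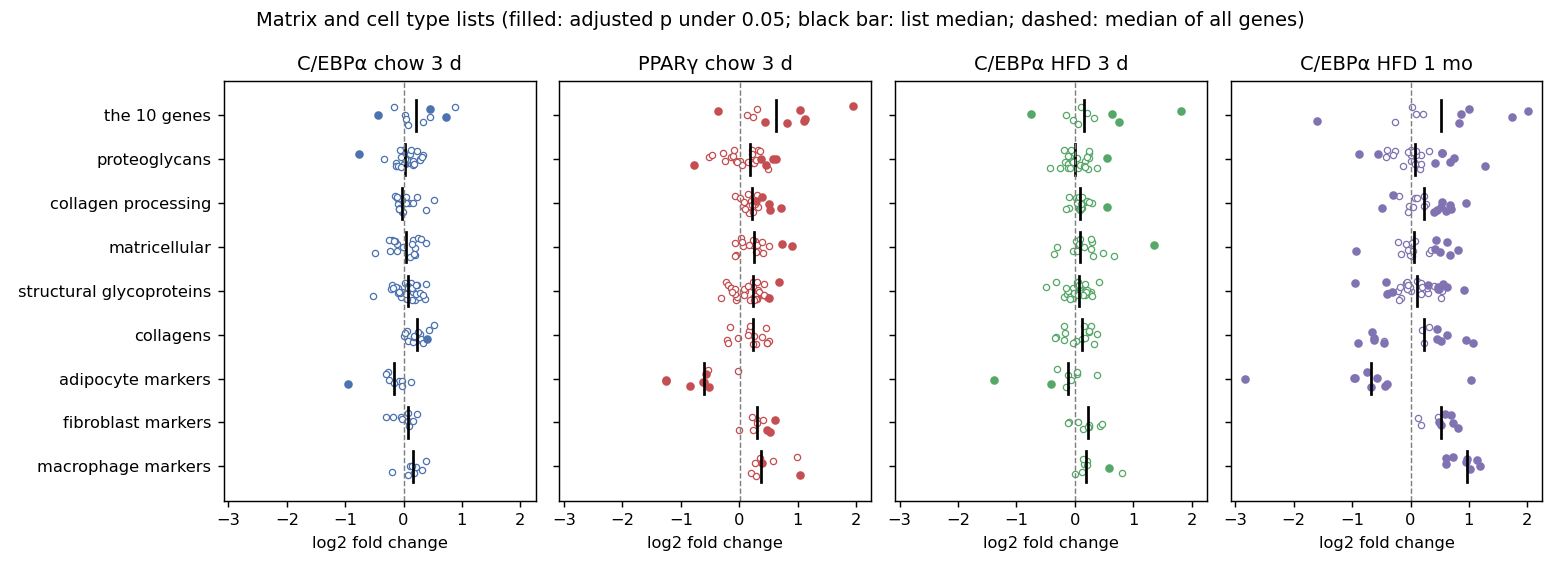
Log2 fold change, knockout minus control (x axis), of the 10 genes and of the tested genes of 5 matrix lists and 3 marker lists (y axis, points spread vertically for visibility) in the 4 comparisons (panels); filled points have an adjusted p under 0.05, black bars are list medians and the dashed line is the median of all genes. Adipocyte markers lie mostly left of 0 in the PPARγ and 1 month panels, where the median of the 10 genes is 0.63 and 0.52.

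The genes whose values over the 24 arrays were most like those of each matrix gene, after subtraction of the mean of the own controls on the log2 scale, are given as a description, since arrays of a group share a condition. Thbs2 was most like Angpt4, an angiopoietin (r = 0.98), and Pik3ip1 (0.95). Smoc1 was most like Eif4ebp1, a repressor of translation (0.97), and Ctdspl (0.97). Lum was most like C1qc, a complement subunit of macrophages (0.96), and Cpa3, a protease of mast cells (0.94). Bgn was most like Trafd1 (0.95) and the amino acid transporter gene Slc7a8 (0.93), and Lox most like Smim41 (0.93) and the cytochrome P450 gene Cyp4f14 (0.92). Comp was most like Cyp2f2 (0.92) and Dync2li1 (0.92). Pcolce was most like Gab3 (0.91), followed by Thbs2 (0.89). The values were lower for Dcn with Arid3a (0.89) and C2 (0.85), Thbs1 with Slit3 (0.82) and Fut4 (0.81), and Postn with Olfr495 (0.79) and Gatm (0.79).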

How the data were processed

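RNA was extracted with Trizol and RNeasy columns, made into biotin-labelled cRNA and hybridised to Illumina arrays, per the labels' protocols. The deposited table holds 1 linear intensity per probe and array, which from its values the authors had quantile-normalized separately in each set of 6 arrays, with no background subtracted. No source used here names the scanner or the normalization software. The median intensity was 110 to 151 per set against an estimated background of 104 to 132. A second deposited table was not used, because the names of its 96 value columns match no sample.

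Background was estimated per set at the mode of the intensities and removed with the normexp model of limma, after which 16 was added and log2 taken. Probes above background (5% false positives) on at least 3 of 24 arrays were kept. The test planned was fitted as written, with limma 3.58.1 in R 4.3.3 on 8 group means (lmFit, eBayes, two-sided, Benjamini-Hochberg over 30257 probes). Symbols came from GEO's platform annotation, with 34885 probes having 1 symbol, 18 several and 10378 none listed. RefSeq's table (GRCm38.p6) gave current symbols and promoters. Replicate numbers did not pair the samples: same-numbered knockout and control arrays deviated together with r of -0.218 to 0.0657.

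The 10 genes, the 7 matrix lists and the 11 marker lists were chosen with earlier results of these data known. Named are all probes of the 10 genes, Cebpa and Pparg, up to 4 called genes per list and comparison with the smallest adjusted p, and the 2 most alike genes per member. For Ogn, Bmp1, Ccn5, Emilin2 and Col6a1 a further comparison with a call is given, chosen after the values were seen. Scripts were tested on simulated data.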

Additional observations from a re-analysis of the deposited data

Results flagged for a closer look

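The knockout effect differed between sets by a limma test of the difference for 5 values. On chow the PPARγ effect was above the C/EBPα effect by 1.03 for Bgn, 0.68 for Thbs2 and 1.04 for Lox on the log2 scale. The Thbs2 difference was not called with array weights (limma adjusted p = 0.0706), precision weights per set (0.0586) or only the arrays of the sets compared (0.0552). It was also lost when most single arrays were left out, as given above. Between 1 month and 3 days of high fat diet the C/EBPα effect differed by 0.97 for Thbs2 and by -0.86 for Smoc1. The dimmer Smoc1 probe ILMN_2567020 was not called in that comparison, at -0.71 ± 0.24 (limma adjusted p = 0.218). The brightest Dcn probe lay on opposite sides of its controls on chow, with every C/EBPα knockout array below (-0.16) and every PPARγ knockout array above, and the difference between the effects was 0.30 ± 0.14 (limma adjusted p = 0.285). The other 3 Dcn probes did not share this: in the chow C/EBPα set they stood at 0.018 ± 0.11, 0.27 ± 0.16 and 0.077 ± 0.14, none called, and for ILMN_2604695 every knockout array lay above every control.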

How the results depend on the processing

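The number of matrix genes called was 6 at 1 month on high fat diet under every alternative tried, and 6 or 7 in the PPARγ set (5 to 7 with single arrays left out). After 3 days on high fat diet it was 4, with 3 to 5 elsewhere (3 to 4 with arrays left out) and 2 when only the 6 arrays of that set were fitted. The 3 genes of the chow C/EBPα set became 5 without background correction or with an offset of 50, 1 with quantile normalization over all 24 arrays, and 0 with the replicate block, array weights, precision weights per set, a threshold of 0.01 or its own 6 arrays, and ranged from 0 to 2 with arrays left out. The causes were not tested.

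All called probes numbered 261 in the chow C/EBPα set and 530 without background correction, 673 with an offset of 50, 399 without a filter on dim probes, 157 with 1 probe per gene, 40 with array weights, 59 with precision weights, 84 with quantile normalization over 24 arrays, 51 at a threshold of 0.01 and 1 from its own arrays (188 to 303 with arrays left out). The PPARγ set had 1925, and 2904 with array weights and 896 at 0.01 (1016 to 1551). The 3 day set had 423, and 820 with array weights, 190 at 0.01 and 84 from its own arrays (206 to 527). The 1 month set had 3999, and 2636 with 1 probe per gene and 2356 at 0.01 (2713 to 3654). With the replicate block these were 65 on chow and 255 at 3 days. The block also ended the calls of Smoc1 (adjusted p = 0.0988), Pcolce (0.0595) and Postn (0.0933) on chow, Smoc1 in the PPARγ set (0.0731) and Pcolce at 3 days (0.0733), and no other call of a member. With only the arrays of its own set the PPARγ call of Smoc1 was lost (0.0907). Without background correction Lum (0.0318) and Thbs2 (0.0422) were called higher on chow in the C/EBPα knockouts. Leaving out the chow C/EBPα set, chosen after seeing the data, ended the 3 day call of Pcolce (0.0509).

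With array weights 2 values near 0 changed sign, Postn at 3 days of high fat diet (0.0064) and Bgn on chow (-0.0011). Leaving out single arrays changed the sign of 21 values of 11 uncalled results. Their ranges on the log2 scale in the chow C/EBPα set were -0.035 to 0.17 (Dcn ILMN_1254458), -0.061 to 0.12 (Dcn ILMN_2596346), -0.066 to 0.18 (Thbs1), -0.21 to 0.23 (Comp ILMN_2869110), -0.071 to 0.15 (Bgn) and -0.031 to 0.18 (Lox). After 3 days on high fat diet they were -0.069 to 0.21 (Dcn ILMN_1254458), -0.14 to 0.17 (Thbs1) and -0.069 to 0.015 (Postn), at 1 month -0.063 to 0.085 (Postn), and for the Comp difference between 1 month and 3 days -0.046 to 0.38. Dim signals limit the precision of Thbs1 and Postn.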

Other observations

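Control intensities of some probes stood apart in the chow C/EBPα set, which was normalized separately, so that no test was made. Its Postn controls read 45.1 to 64.3, against at most 5.35 in the controls of the other sets. The Lum probe ILMN_2773259 had a control mean of 1675, against 394 to 473 elsewhere, while the brighter Lum probe had 2977 against 2573 to 3253. The Dcn probe ILMN_2596346 had 11176 against 4099 to 5325. Platelet markers were summed at 2397 to 2743 in those controls and at 327 to 625 in the controls of the other sets.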
